A study of Mus musculus with 3 samples.

Results

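Hedgehog signalling in the fetal testis was followed through 6 genes, Dhh, Ptch1, Hhip, Smo, Gli1 and Gli2. Dhh encodes the ligand, Ptch1 its receptor, Hhip a ligand-binding membrane protein, Smo the transducer, and Gli1 and Gli2 transcription factors. The probes of these genes were found by matching the transcript accession printed for each array probe to a mouse RefSeq gene table. Of these 6 genes, 5 had a matched probe, among 16531 genes with a matched probe on the array. Gli2 had none and was not analysed here. Smo had 2 probes and the other 4 genes 1 each, so that 6 probes carried the measurements. All 6 were well above background on all 6 arrays.

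The arrays measured RNA of whole male gonads taken at embryonic day 14.5 from mice of the line MCH. There were 3 genotypes with 2 one-colour arrays each: wild type (Cyp26b1+/+/Stra8+/+), Cyp26b1 knockout (Cyp26b1-/-/Stra8+/+) and double knockout (Cyp26b1-/-/Stra8-/-). CYP26B1 is the enzyme that clears retinoic acid from the fetal testis, and STRA8 is the retinoic acid-responsive protein that germ cells need to enter meiosis, so both mutant groups lack the enzyme and differ from each other in Stra8. The series' design text states that each genotype was examined in biological duplicate. P-values therefore rest only on the spread between the 2 arrays of a genotype. The fit drew each probe's spread toward that of probes of like signal, with a median prior of 4.43 degrees of freedom beside 3 residual ones. The sources used here do not say whether gonads were pooled for an array.

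Desert hedgehog, the product of Dhh, is secreted by Sertoli cells inside the testis cords. It binds Patched receptors on neighbouring interstitial, peritubular and Leydig precursor cells, which frees Smoothened, encoded by Smo, to act at the primary cilium and turn on GLI transcription factors. Ptch1, Hhip and Gli1 are themselves transcribed in response to the signal and are the usual readouts of it, and in the mouse loss of Dhh impairs fetal Leydig cell differentiation.

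Values are log2 signals set against the array's 75th percentile, on which an increase of 1 is a doubling. A probe was called changed when its adjusted p in the limma fit over 27864 probes was below 0.05. Many probes passed. Cyp26b1 knockout against wild type called 53.4% of all probes tested, 25.2% higher and 28.2% lower. Double knockout against wild type called 11.5%, 5.09% higher and 6.46% lower. Double knockout against Cyp26b1 knockout called 46.0%, 23.7% higher and 22.3% lower. The share of calls that were higher was 47.2%, 44.1% and 51.5% in these comparisons. Centring each array on its median moved the last of these shares to 63.1% and that of double knockout against wild type to 70.2%, and the scaling of the authors' deposited value table moved them to 19.3% and 12.3%.

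The labels could be checked on the targeted genes only in part. The Cyp26b1 probe stood between 3.83 and 4.27 on all 6 arrays, with overlapping genotypes. The Stra8 probe read 3.73 and 2.41 on the wild type arrays, 7.19 and 7.04 on those of Cyp26b1 knockout and 5.98 and 6.14 on those of double knockout. Arrays labelled as lacking Stra8 thus exceeded wild type by 2.98 on this probe (adjusted p = 0.00387). The sources used here do not say whether these probes lie in the deleted parts of the genes, so genotypes are those of the labels throughout. Each genotype lay on a slide of its own, and the Cyp26b1 knockout slide was scanned on another day than both others, so genotype, slide and scan day cannot be told apart.

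In the members, 4 of 6 probes were higher in Cyp26b1 knockout than in wild type, none differed between double knockout and wild type beyond the threshold, and 4 of 6 were lower in double knockout than in Cyp26b1 knockout. The first count covers Dhh, Gli1 and both probes of Smo, and the last covers Gli1, Hhip and both probes of Smo. Of all probes, 53.4% were called in the first comparison, 25.2% as higher, and 46.0% in the last, 22.3% as lower. In the other, 0 of 6 stands beside 11.5%. These shares varied with the mean level of the probes. In steps of 1 from -3 to 0, where Gli1, Hhip and the dimmer of the 2 Smo probes lie, 30.7% to 32.2% were higher in the first comparison. There 27.3% to 29.2% were lower in the last. Between 4 and 5, where Dhh and the brighter Smo probe lie, these shares were 12.3% and 6.58%. The 6 probes belong to 5 genes, and their counts were not tested against these shares. No member was called lower in Cyp26b1 knockout than in wild type, or higher in double knockout than in Cyp26b1 knockout. With the scaling of the authors' deposited value table every member probe passed as lower in the last comparison. Only 19.3% of all calls were higher there. At unadjusted p below 0.05, 1 member probe, that of Hhip, differed between double knockout and wild type.

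**Figure D1:**
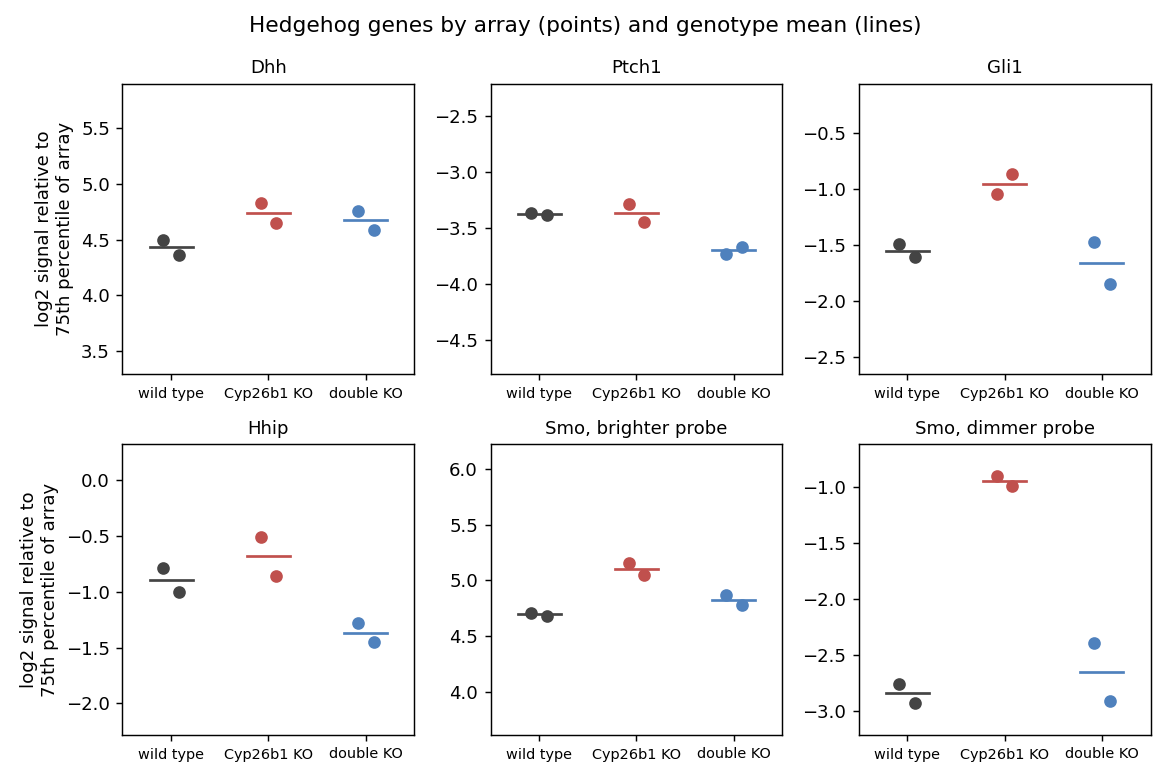
Log2 signal above or below the 75th percentile of the array for the 6 probes of Dhh, Ptch1, Gli1, Hhip and Smo. Each point is an array, each line is the mean of the 2 arrays of a genotype, and each panel spans the same width on the log2 scale. Gli1 and the dimmer Smo probe are highest on both Cyp26b1 knockout arrays, and Hhip and Ptch1 are lowest on both double knockout arrays.

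Dhh, the ligand gene, differed little between genotypes. It stood at 4.50 and 4.36 on the wild type arrays, 4.83 and 4.65 on the Cyp26b1 knockout arrays and 4.76 and 4.59 on the double knockout arrays. Both mutant pairs lay above the wild type pair without overlap, and they overlapped each other. Cyp26b1 knockout exceeded wild type by 0.31 ± 0.11 (SE), a 1.24-fold difference (adjusted p = 0.0422). Double knockout exceeded wild type by 0.24 ± 0.11, with a 95% confidence interval from -0.01 to 0.49 (adjusted p = 0.181). Double knockout and Cyp26b1 knockout differed by -0.07 ± 0.11 (adjusted p = 0.633). That difference passed with quantile normalization of the arrays (-0.28, adjusted p = 0.0185). It also passed with the scaling of the authors' deposited value table (-0.37, adjusted p = 0.0236).

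The Dhh difference is relative to the other probes of each array. Before scaling, its processed signal was 28493 and 30765 in wild type and 27658 and 27578 in Cyp26b1 knockout, so the knockout arrays were the dimmer ones. The upper quartile of signal was 974 and 1099 on the Cyp26b1 knockout arrays and 1261 and 1494 on the wild type arrays, and the difference relative to it is positive. Among the 729 probes with a mean level between 4 and 5, as that of Dhh, the median difference was -0.18, and 12.3% were called higher. The call was kept under 7 of 17 alternative settings, with differences from 0.22 to 0.50. It was lost without Cyp26b1 knockout array 1 (adjusted p = 0.160), without double knockout array 1 or array 2 (0.0532 each), and without wild type array 1 (0.0764) or array 2 (0.213).

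Dhh belongs to Sertoli cells, and the wider list of Sertoli cell genes moved in both directions. Of 19 genes measured, Dhh included, 6 were higher and 6 lower in Cyp26b1 knockout than in wild type (all probes: 25.2% and 28.2%). Their summed signal ranged from 191 to 204 upper-quartile units in wild type, from 215 to 221 in Cyp26b1 knockout and from 197 to 231 in double knockout. Sox9, which drives Sertoli cell fate, was well above background on every array and differed by 0.06 ± 0.15 between Cyp26b1 knockout and wild type at its brightest probe (adjusted p = 0.755). Its other 2 probes, also well above background, were higher in Cyp26b1 knockout by 0.79 ± 0.20 and 0.79 ± 0.19 (adjusted p = 0.0119 and 0.00911). Because the Sox9 probes disagree, no statement on its level is drawn here. Dmrt1, a transcription factor of Sertoli and germ cells, was higher by 2.86 ± 0.20 (adjusted p = 9.56e-05). Hsd17b1, a steroid dehydrogenase, was lower by a log2 difference of -2.85 ± 0.22 (adjusted p = 0.000123). In whole gonads fewer cells of a type and less RNA per cell cannot be told apart, and the part of cell numbers in the Dhh values was not tested.

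Ptch1, the receptor that holds Smoothened inactive until a ligand binds, did not pass in any comparison. It stood at -3.37 and -3.38 in wild type, at -3.28 and -3.44 in Cyp26b1 knockout and at -3.73 and -3.67 in double knockout. The wild type arrays lay inside the range of the Cyp26b1 knockout arrays, and both double knockout arrays lay below all others. The difference between Cyp26b1 knockout and wild type was 0.01 ± 0.16, with a 95% confidence interval from -0.35 to 0.38 (adjusted p = 0.953). Double knockout differed from wild type by -0.33 ± 0.16 (adjusted p = 0.212) and from Cyp26b1 knockout by -0.34 ± 0.16 (adjusted p = 0.113).

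The Ptch1 probe was printed at 10 places on each array, of which 7 to 10 were usable, and its spots on an array differed by a standard deviation of 0.05 to 0.14. With the scaling of the authors' deposited value table both double knockout differences passed, at -0.53 (adjusted p = 0.0472) against wild type and -0.64 (adjusted p = 0.0120) against Cyp26b1 knockout. The latter also passed without the intensity trend (adjusted p = 0.0482). The sign of the difference between Cyp26b1 knockout and wild type varied with the setting, from -0.70 to 0.13.

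Hhip, which encodes a membrane protein that binds hedgehog ligands and limits their range, was lowest in double knockout. It stood at -0.79 and -1.01 in wild type, at -0.51 and -0.86 in Cyp26b1 knockout and at -1.28 and -1.45 in double knockout. The wild type and Cyp26b1 knockout pairs overlapped, and both double knockout arrays lay below the other 4. Double knockout was lower than Cyp26b1 knockout by a log2 difference of -0.68 ± 0.15 (adjusted p = 0.00899), which leaves 0.622 of the Cyp26b1 knockout signal. This difference passed under 16 of 17 alternative settings, including each array left out in turn, with values from -0.99 to -0.51.

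Against wild type, Hhip differed by -0.47 ± 0.15 in double knockout (adjusted p = 0.0871) and by 0.21 ± 0.15 in Cyp26b1 knockout (adjusted p = 0.268). The former passed with the array number as a replicate block (adjusted p = 0.0361) and with the scaling of the authors' deposited value table (-0.67, adjusted p = 0.0211).

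Smo, the transducer that Patched receptors hold in check, was measured by 2 probes that differed in the size of its change. The brighter probe stood at 4.71 and 4.68 in wild type, at 5.15 and 5.05 in Cyp26b1 knockout and at 4.87 and 4.78 in double knockout. The dimmer probe stood at -2.76 and -2.94 in wild type, at -0.90 and -0.99 in Cyp26b1 knockout and at -2.40 and -2.91 in double knockout. On both probes the Cyp26b1 knockout arrays were the highest, apart from the other 4. The double knockout arrays overlapped the wild type arrays on the dimmer probe only.

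Between Cyp26b1 knockout and wild type the brighter Smo probe rose by 0.40 ± 0.09, or 1.32-fold (adjusted p = 0.00616). The dimmer probe rose by 1.90 ± 0.18, or 3.74-fold (adjusted p = 0.000238). Double knockout was lower than Cyp26b1 knockout by -0.27 ± 0.09 on the brighter probe (adjusted p = 0.0346) and by -1.71 ± 0.18 on the dimmer one (adjusted p = 0.000623). Double knockout differed from wild type by 0.13 ± 0.09 (adjusted p = 0.354) and 0.19 ± 0.18 (adjusted p = 0.528).

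Each of these calls except the one of -0.27 was kept under 15 of 16 alternative settings. The call at -0.27 was kept under 7 of 16. It was lost without Cyp26b1 knockout array 1 (adjusted p = 0.0950), without double knockout array 1 (0.0838) or array 2 (0.187), and without wild type array 1 (0.0675) or array 2 (0.0674). Before scaling, the brighter probe's processed signal was 32998 and 38355 in wild type and 34667 and 36324 in Cyp26b1 knockout, which overlap.

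The spread between probes of a gene was larger wherever the Cyp26b1 knockout arrays entered. Among 4031 genes with several probes well above background on all arrays, the difference between Cyp26b1 knockout and wild type was larger on the dimmest than on the brightest probe by a median of 0.30. In 17.0% of these genes the dimmest probe exceeded the brightest by more than 1, and in 3.45% it fell short by more than 1. Smo, with a gap of 1.50, lay inside this spread, as 6.55% of the genes had a larger gap in either direction. Between double knockout and wild type the median gap was -0.05, only 0.273% and 0.645% of genes passed 1 in either direction, and the gap of Smo was 0.06. Between double knockout and Cyp26b1 knockout the median was -0.36 and Smo stood at -1.44, exceeded in size by 7.12% of genes. This comparison of probes was chosen after the Smo values had been seen, and its part in the differences of the single-probe genes was not tested.

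**Figure D2:**
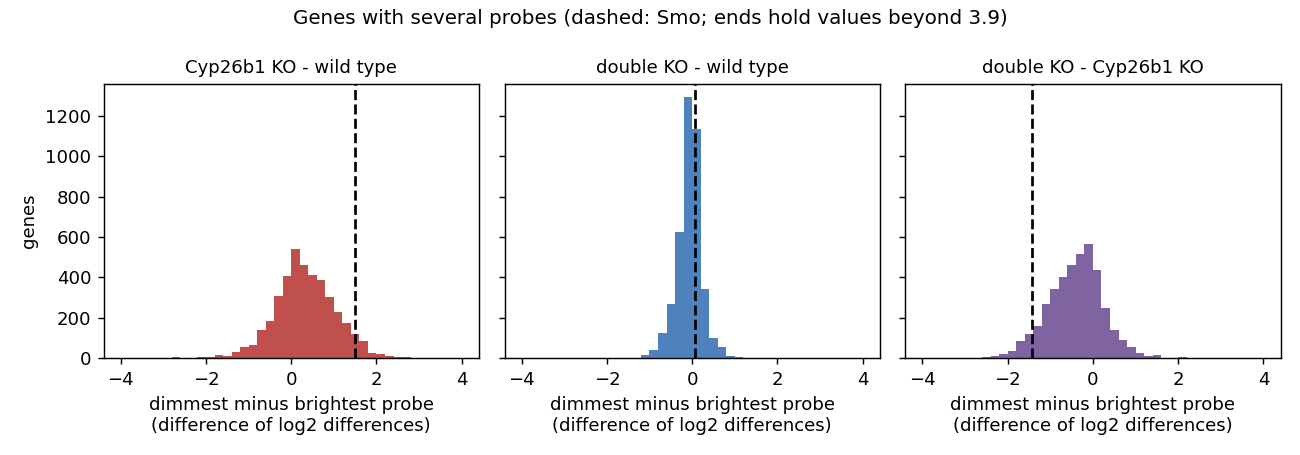
Histograms over 4031 genes of the log2 difference on the gene's dimmest probe minus that on its brightest probe, for each comparison of genotypes. The vertical axis counts genes and the dashed line marks Smo. The spread is wide in both comparisons that include Cyp26b1 knockout, where Smo stands at 1.50 and -1.44, and narrow between double knockout and wild type, where it stands at 0.06.

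Gli1, the transcription factor whose own transcription follows hedgehog activity, was highest in Cyp26b1 knockout. It stood at -1.49 and -1.61 in wild type, at -1.04 and -0.86 in Cyp26b1 knockout and at -1.47 and -1.84 in double knockout. Both Cyp26b1 knockout arrays lay above all others, and the wild type arrays lay inside the range of the double knockout arrays. Cyp26b1 knockout exceeded wild type by 0.60 ± 0.15, or 1.51-fold (adjusted p = 0.0129). Double knockout was lower than Cyp26b1 knockout by a log2 difference of -0.71 ± 0.15 (adjusted p = 0.00806). Double knockout differed from wild type by -0.11 ± 0.15, with a 95% confidence interval from -0.46 to 0.25 (adjusted p = 0.679).

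The Gli1 probe was printed 10 times on each array, and all 10 spots were usable on every array, with a standard deviation between spots of 0.05 to 0.08. Between the arrays of a genotype the standard deviation was 0.08 in wild type, 0.12 in Cyp26b1 knockout and 0.27 in double knockout. Before scaling, the Gli1 processed signal was 474 and 604 in Cyp26b1 knockout and 449 and 490 in wild type, which overlap. The rise against wild type is therefore relative to the other probes of each array. It was kept under 14 of 17 alternative settings. It was lost without Cyp26b1 knockout array 2 (0.51, adjusted p = 0.0658), without wild type array 2 (0.54, adjusted p = 0.0779) and with a background correction fitted on all spots (0.22, adjusted p = 0.690). The fall between Cyp26b1 knockout and double knockout was kept under 16 of 17 settings, including each array left out in turn, with values from -1.01 to -0.52.

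**Figure D3:**
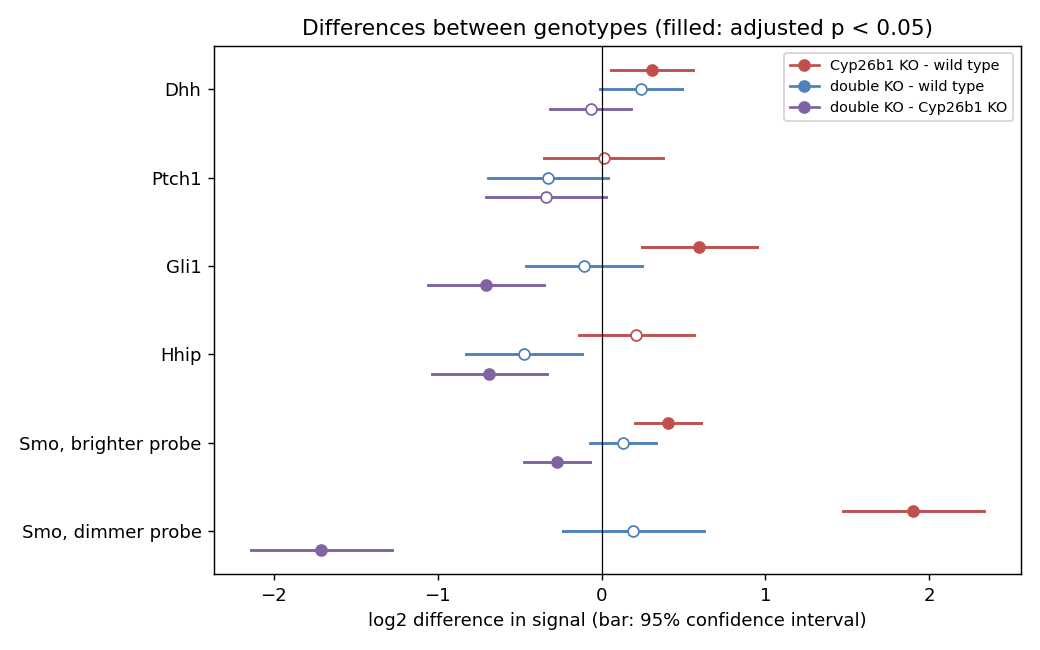
Log2 differences between genotypes for the 6 member probes, with bars for the 95% confidence interval. Filled points passed at an adjusted p below 0.05. The Gli1 interval runs from 0.24 to 0.95 for Cyp26b1 knockout against wild type and from -1.06 to -0.35 for double knockout against Cyp26b1 knockout, and no point is filled for double knockout against wild type.

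The 3 genes Ptch1, Hhip and Smo are shown by the 250 bases before their annotated start sites. Any part of these sequences in the signal differences was not tested. The sequences are from RefSeq on build GRCm38.p6, printed 5′ to 3′ on the strand of the gene. Capitals mark the GLI core letters CCACCC, or GGGTGG where they lie on the other strand. Hhip lies at chr8:80058009-80058258 on the minus strand, Smo at chr6:29735247-29735496 on the plus strand and Ptch1 at chr13:63565736-63565985 on the minus strand.
Hhip: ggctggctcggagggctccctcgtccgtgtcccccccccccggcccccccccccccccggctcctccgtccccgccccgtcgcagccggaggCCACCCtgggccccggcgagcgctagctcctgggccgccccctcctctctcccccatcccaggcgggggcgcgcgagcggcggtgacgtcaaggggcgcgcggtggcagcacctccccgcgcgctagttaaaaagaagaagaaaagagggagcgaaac
Smo: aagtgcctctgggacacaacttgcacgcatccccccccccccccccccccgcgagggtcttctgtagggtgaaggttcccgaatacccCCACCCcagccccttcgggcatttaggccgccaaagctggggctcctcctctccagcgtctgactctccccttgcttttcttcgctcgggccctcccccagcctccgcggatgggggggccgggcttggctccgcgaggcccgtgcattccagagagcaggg
Ptch1: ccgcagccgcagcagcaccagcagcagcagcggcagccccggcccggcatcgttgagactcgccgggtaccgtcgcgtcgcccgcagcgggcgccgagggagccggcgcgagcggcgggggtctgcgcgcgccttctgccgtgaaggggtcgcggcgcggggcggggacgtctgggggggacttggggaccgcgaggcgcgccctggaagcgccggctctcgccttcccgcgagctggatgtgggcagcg

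The Hhip window holds the core letters 158 bases before the start site and the Smo window 162 bases before it, and the Ptch1 window does not hold them. The 5 members with a promoter entry are Dhh, Gli2, Hhip, Ptch1 and Smo. They are not the 5 measured genes, since Gli2 has no matched probe and Gli1 no promoter entry. All but Ptch1, or 4 of the 5, hold these letters on either strand, as do 28.1% of all 32851 windows of the same length. The longer GLI consensus letters GACCACCCA, which contain the core, were found in 0 of the 5 and in 0.225% of all windows. The retinoic acid receptor core letters AGGTCA were found in 0 of the 5 and in 14.0% of all windows. These are matches of letters in a short window and not binding sites.

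The profiles of the members over the 6 arrays, each centred on its own mean, were compared by their root-mean-square distance. The closest pair was Dhh and the brighter Smo probe, at 0.0956, followed by Ptch1 and Hhip, at 0.176. Before scaling, the processed signal ran from 27578 to 33579 for Dhh and from 32998 to 38492 for the brighter Smo probe. The upper quartile by which both were scaled ran from 974 to 1494, and its part in their closeness was not tested. Gli1 was nearer to the brighter Smo probe, at 0.213, than to Ptch1, at 0.291. The dimmer Smo probe was at least 0.565 from each other member probe, and 0.704 from the brighter Smo probe. Both Smo probes share their highest arrays, and the distance reflects the size of the change.

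Among the named genes whose probes were well above background on all arrays, the profiles nearest to each member were found the same way, over 6 arrays. Nsun2 was nearest to Dhh at 0.0269, followed by Ech1 and Ccdc159. Wnt2 was nearest to Ptch1 at 0.0366, followed by Ephb3 and Ptpn13. Foxh1 was nearest to Hhip at 0.0443, followed by Wipi1 and Bckdha. For Smo, by its brighter probe, Actg1 was nearest at 0.0171, followed by Wdr24 and Ppp1r7. For Gli1, Cyth2 was nearest at 0.0361, followed by Ncs1 and Slc39a13. The median distance of all such probes from a member was between 0.288 and 0.410.

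The rest of the pathway was described by 73 further genes, of which 10 had no matched probe and 4 had no genotype with both arrays well above background. Of the 59 tested, 17 were higher and 15 lower in Cyp26b1 knockout than in wild type, or 54.2% beside 53.4% of all probes. Between double knockout and wild type 2 were higher and 3 lower, or 8.47% beside 11.5%. Between double knockout and Cyp26b1 knockout 12 were higher and 10 lower, or 37.3% beside 46.0%. The median differences were 0.00, 0.01 and -0.01, against -0.04, -0.02 and 0.04 over all probes tested. The genes that passed lay in both directions in similar numbers. In the groups below 1 gene is counted under 2 roles, so the numbers tested and those higher in Cyp26b1 knockout than in wild type sum to 1 more than given here.

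**Figure D4:**
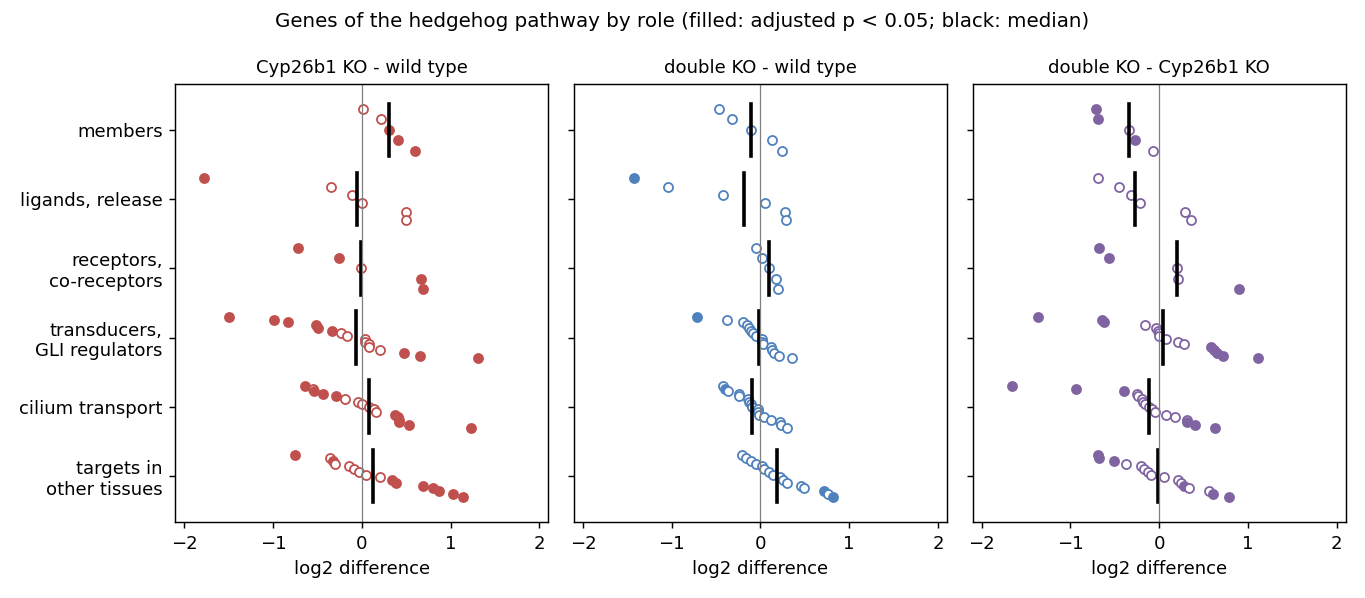
Log2 differences between genotypes for the members, each by its brightest probe, and for the other hedgehog pathway genes grouped by role. Each point is a gene, filled where it passed at an adjusted p below 0.05, and black bars are group medians. Calls lie on both sides of 0 in every group with more than 1 call in a comparison, apart from the members and the targets in double knockout against wild type, where 2 genes were higher and 0 lower.

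Among 6 other genes for ligands and their release, 1 passed against wild type. Shh, the ligand that patterns epithelial ducts, was well above background in wild type only, so a floor was set under its mutant signals. By that estimate it was 3.43-fold lower in Cyp26b1 knockout and 2.34-fold lower in double knockout. The fitted differences were -1.78 (adjusted p = 0.00108) and -1.42 (adjusted p = 0.0151). The estimate sets the wild type mean against the higher of the dim signal and the lowest signal well above background on that array. It is not a lower limit, as other settings gave smaller differences. These Shh values depend on the background correction. With normexp fitted without marked spots they were -0.39 in Cyp26b1 knockout (adjusted p = 0.0473) and -0.41 in double knockout (adjusted p = 0.107). Both are smaller in size than the fitted differences. With normexp fitted on all spots they were -1.53 and -0.90, and neither passed (adjusted p = 0.642 and 0.898). The double knockout difference also missed the threshold without double knockout array 2 (-1.43, adjusted p = 0.0520), without wild type array 1 (-1.24, adjusted p = 0.113) and without wild type array 2 (-1.61, adjusted p = 0.0683). Ihh, the third mammalian ligand, passed the background mark on both arrays of Cyp26b1 knockout, on neither of double knockout and on 1 of those of wild type. It passed the test in no comparison, with adjusted p = 0.417 for Cyp26b1 knockout and 0.0936 for double knockout against wild type.

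Markers of the mesonephros and its ducts, which adjoin the gonad at dissection, were counted beside Shh. Of 14 such genes measured, 2 were higher and 7 lower in Cyp26b1 knockout than in wild type (all probes: 25.2% and 28.2%). In double knockout 1 was higher and 3 lower (all probes: 5.09% and 6.46%), and the other 10 did not pass. Their summed signal was 16.1 and 17.9 upper-quartile units on the wild type arrays, 13.6 and 10.6 on those of Cyp26b1 knockout and 12.3 and 11.8 on those of double knockout. Their mean log2 level on Cyp26b1 knockout array 1 (-1.55) lay between those of the wild type arrays (-1.61 and -1.34). Wfdc2, a secreted protein of duct epithelium, differed from wild type by -1.48 ± 0.20 and -1.20 ± 0.20 (adjusted p = 0.000872 and 0.0118). The part of such tissue in the Shh values was not tested.

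Of 5 other receptors and co-receptors, 2 were higher and 2 lower in Cyp26b1 knockout than in wild type. Boc, a co-receptor that binds the ligand, was higher by 0.67 ± 0.09 (adjusted p = 0.000717) and lower again in double knockout, at -0.57 ± 0.09 against Cyp26b1 knockout (adjusted p = 0.00199). Gas1, a membrane-anchored co-receptor, went the other way, at -0.72 ± 0.08 (adjusted p = 0.000476) and then 0.90 ± 0.08 (adjusted p = 0.000424). None of the 5 passed between double knockout and wild type. Boc thus shared the directions of Gli1, and Gas1 had the opposite ones.

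Among 16 transducers and GLI regulators, 3 were higher and 6 lower in Cyp26b1 knockout than in wild type. Sufu, which holds GLI proteins in the cytoplasm, was higher by 1.31 ± 0.17 (adjusted p = 0.000763) and lower by -1.37 ± 0.17 in double knockout than in Cyp26b1 knockout (adjusted p = 0.00102). The other Sufu probe was also higher, by 0.85 (adjusted p = 0.00773), and then lower (adjusted p = 0.00495). Spop, an adaptor for GLI protein degradation, was lower by -1.50 ± 0.13 (adjusted p = 0.000176) and then higher by 1.12 ± 0.13 (adjusted p = 0.000776). Prkar1a, the regulatory subunit of the protein kinase A that phosphorylates GLI proteins, was lower by -0.83 ± 0.10 (adjusted p = 0.000483) and then higher by 0.72 ± 0.10 (adjusted p = 0.00126). Spop and Prkar1a thus had directions opposite to those of Sufu. Stk36, a kinase of the Fused family, was lower in both mutants, at -0.99 ± 0.14 in Cyp26b1 knockout (adjusted p = 0.00114) and -0.71 ± 0.14 in double knockout (adjusted p = 0.0226). Gli3, the GLI factor that is processed mainly to a repressor, was not well above background on any array.

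Hedgehog signals pass through the primary cilium, and of 17 genes for its transport 6 were higher and 4 lower in Cyp26b1 knockout than in wild type. The kinesin subunit genes Kif3b and Kif3a moved apart. Kif3b was higher by 1.23 ± 0.13 (adjusted p = 0.000369) and Kif3a lower by -0.64 ± 0.11 (adjusted p = 0.00241). In double knockout against Cyp26b1 knockout they stood at -1.66 ± 0.13 and 0.63 ± 0.11 (adjusted p = 0.000318 and 0.00359). Ift172, of the complex that carries cargo to the ciliary tip, was higher by 0.53 ± 0.10 in Cyp26b1 knockout (adjusted p = 0.00343) and lower than wild type by -0.41 ± 0.10 in double knockout (adjusted p = 0.0400). Its 2 other probes gave 1.39 and 0.81 in the first comparison, both past the threshold. In double knockout against wild type they gave -0.49 (adjusted p = 0.136) and -0.58 (adjusted p = 0.0149).

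Of 16 genes that respond to hedgehog in other tissues, 7 were higher and 2 lower in Cyp26b1 knockout than in wild type. Ccnd1 and Ccne1, cyclins of the start of the cell cycle, were higher by 1.03 ± 0.13 and 1.14 ± 0.12 (adjusted p = 0.000708 and 0.000348). Jag2, a Notch ligand, was higher by 0.80 ± 0.12 (adjusted p = 0.00122), and Snai1, a repressor of epithelial genes, was lower by -0.75 ± 0.10 (adjusted p = 0.000789). In double knockout Ccnd1 and Jag2 were still above wild type, by 0.82 ± 0.13 and 0.71 ± 0.12 (adjusted p = 0.0105 and 0.0113). Ccne1 and Snai1 differed between double knockout and Cyp26b1 knockout by -0.69 ± 0.12 and 0.79 ± 0.10 (adjusted p = 0.00387 and 0.00102).

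The 5 pathway genes that passed between double knockout and wild type were Shh, Stk36, Ift172, Ccnd1 and Jag2. Without wild type array 2 none of them passed, with adjusted p of 0.0683 for Shh, 0.146 for Stk36, 0.217 for Ift172, 0.0873 for Ccnd1 and 0.0625 for Jag2. Without double knockout array 2, 1 pathway gene passed.

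Cells that receive the ligand were followed through lists of interstitial and Leydig cell genes. The interstitial and peritubular list held 20 genes, Ptch1 and Gli1 included. Of these genes 5 were higher and 6 lower in Cyp26b1 knockout than in wild type (all probes: 25.2% and 28.2%). Their summed signal ranged from 186 to 205 in wild type, from 159 to 186 in Cyp26b1 knockout and from 223 to 228 in double knockout. Pdgfra, a receptor of interstitial progenitors, was lower in Cyp26b1 knockout by -1.07 ± 0.11 (adjusted p = 0.000345) and higher in double knockout than there by 0.89 ± 0.11 (adjusted p = 0.00105) at its brightest probe. Its other probe, also well above background on every array, passed the other way in both comparisons, with differences of 0.74 ± 0.17 (adjusted p = 0.00948) and -1.06 ± 0.17 (adjusted p = 0.00268). No direction is therefore given for Pdgfra. The part of interstitial cell numbers in the Gli1, Hhip and Smo values was not tested.

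Of 15 fetal Leydig cell genes, 2 were higher and 8 lower in Cyp26b1 knockout than in wild type, with a median difference of -0.66 against -0.04 over all probes, of which 25.2% were higher and 28.2% lower. In double knockout 1 was higher and 5 lower than in wild type, and 6 were higher and 3 lower than in Cyp26b1 knockout. Their summed signal was 263 and 243 on the wild type arrays, 145 and 176 on those of Cyp26b1 knockout and 229 and 199 on those of double knockout. The mean level of these genes ran from 1.77 to 2.35 over the arrays. Among all probes with a mean level between 1 and 2, Cyp26b1 knockout differed from wild type by a median of -0.09, with 23.9% higher and 34.1% lower. Between 2 and 3 the median was -0.13, with 18.4% higher and 37.0% lower. Other probes of the Leydig genes passed in both directions in this comparison. Hsd17b7, an enzyme of steroid and cholesterol synthesis, was lower by -1.86 ± 0.09 (adjusted p = 4.33e-05), and by -0.56 ± 0.10 at its other probe (adjusted p = 0.00275). Vcam1, a cell adhesion molecule, was lower by -1.54 ± 0.13 (adjusted p = 0.000172), while its other probe, not well above background in wild type, gave 0.58 ± 0.38 (adjusted p = 0.230). Cited4, a transcriptional coactivator, was higher by 2.15 ± 0.15 (adjusted p = 0.000101). The Leydig list shares Gata4 with the Sertoli list.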

How the data were processed

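RNA of mouse fetal male gonads was hybridised to Agilent one-colour arrays, 2 per genotype for 3 genotypes. Per the file headers, the authors extracted spot intensity with Agilent Feature Extraction 9.5.3.1 (9.5 per the submitters' processing notes), which subtracts background. The same deposited files hold other columns, the marks for outlier spots and for signal well above background. The authors' deposited value table holds 1 value per probe and genotype, a linear ratio-like quantity whose centring is not stated. Its columns have medians of 1.12, 0.959 and 1.00 for Cyp26b1 knockout, double knockout and wild type, and it was used only for its scaling. Log2 differences between its columns followed those of the scanner files apart from constant shifts of 0.10, -0.20 and -0.30 in the 3 comparisons, in the order Cyp26b1 knockout against wild type, double knockout against wild type and double knockout against Cyp26b1 knockout.

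The spots of a probe were averaged, leaving out outliers, and log2 of the processed signal was set against the array's 75th percentile. Of 41174 probes, 41149 had a usable spot on every array, and 23374 of all probes were named through unversioned accessions in the RefSeq table of GRCm38.p6. The 27864 probes with at least 1 genotype in which both arrays were well above background were fitted with limma 3.58.1 in R 4.3.3 (lmFit, eBayes with intensity trend) over all 6 arrays, with 3 residual degrees of freedom. Tests were two-sided, with Benjamini-Hochberg adjustment over all probes and a threshold of 0.05. An exact permutation test of 2 against 2 arrays cannot reach that threshold. The scripts were tested on simulated data. Between 61.9% and 68.6% of probes were well above background on an array, and the number of arrays limits the precision.

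All probes of the 6 genes are named. From each pathway list up to 4 called genes with the smallest adjusted p per comparison could be named, together with Shh, Ihh, Gli3 and Sufu, and from each cell type list up to 3, each gene by its brightest probe. Sox9, a defining Sertoli cell gene, was named after its values had been seen. 1 further gene of these lists is not reported here. Lists of endothelial, blood and macrophage, and germ cell genes were also counted. The members and lists were chosen with earlier results of these data known. Alternatives changed the scaling, background correction, filter, trend, probes per gene, arrays in the fit and a replicate block. The background correction named for the alternatives needed a mean signal, and the median signal was used in its place. The array numbers come from the names of the scanner files, and the labels do not say that they pair arrays of different genotypes.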

Additional observations from a re-analysis of the deposited data

How the results depend on the processing

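The normexp background correction fitted on all spots moved most counts. Its calls fell to 4604, 570 and 3590 of 14876, 3218 and 12826 (Cyp26b1 knockout against wild type, double knockout against wild type, double knockout against Cyp26b1 knockout), member probes called to 0 in the first and last, and other pathway genes called to 14, 2 and 11 of 32, 5 and 22. It also turned Sufu to -0.23 and Foxf2 to -0.42 in Cyp26b1 knockout against wild type. The highest local background was 35410 on 1 wild type array and 3325 on 1 double knockout array, against 77 to 179 elsewhere. Fitted without control spots and marked spots, an alternative chosen after seeing the data, the correction called 3, 0 and 3 member probes, and the brighter Smo probe then had no usable spot on some array. Between double knockout and wild type, no filter gave 1997 calls. The value table's scaling gave 6570 there, with 2 member probes and 17 pathway genes, and 37 pathway genes against Cyp26b1 knockout, where Bcl2 turned to -0.018. Centring on the median gave 10 pathway genes and no trend 3 between double knockout and wild type. With the array number as a replicate block, 1 member probe passed there. Differences between array 1 and array 2 correlated by 0.0915 to 0.187 between genotypes. Leaving out 1 array gave 10490 to 14807, 623 to 3522 and 9440 to 11306 calls, with 2 to 3, 0 to 0 and 3 to 4 member probes and 20 to 31, 0 to 7 and 17 to 26 pathway genes. The low values of 20 and 10490 came without wild type array 1, and those of 2, 623 and 0 without wild type array 2. Between double knockout and wild type, 783 probes passed without wild type array 1, and 1444 without double knockout array 2. The cause of these changes was not tested. Slide as a block was not run, since each genotype lies on 1 slide of its own.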

Other observations

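Other cell types of the gonad were counted beside the members. Of all probes, 25.2% were higher and 28.2% lower in Cyp26b1 knockout than in wild type. In double knockout against wild type these shares were 5.09% and 6.46%. Of 15 endothelial genes, 7 were higher and 4 lower in Cyp26b1 knockout than in wild type, and 4 were higher and 0 lower in double knockout than in wild type. Pecam1, a junction protein of endothelium, rose by 1.58 ± 0.15 in Cyp26b1 knockout (adjusted p = 0.00022) and stood lower in double knockout than there, at -1.27 ± 0.15 (adjusted p = 0.000781). Of 14 germ cell genes, 5 were higher and 6 lower in Cyp26b1 knockout than in wild type, with a median of -0.22, and 3 were higher and 3 lower in double knockout. Rhox6 and Rhox9, homeobox genes of the germ line, rose by 2.91 ± 0.16 and 2.46 ± 0.13 in Cyp26b1 knockout (adjusted p = 5.81e-05 and 5.33e-05). Of 14 blood and macrophage genes, 2 were higher and 5 lower in Cyp26b1 knockout, and 1 was higher and 1 lower in double knockout. The part of these cell types in the member values was not tested.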
